A study of Mus musculus and blank sample with 768 samples.

Results

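Signalling by vascular endothelial growth factors (VEGFs) was described through 9 mouse genes: the receptor genes Flt1, Kdr and Flt4, the co-receptor genes Nrp1 and Nrp2, and the ligand genes Vegfa, Vegfb, Vegfc and Pgf. They were chosen by name, not by their values, and are 9 of the 51734 gene symbols in the deposited read counts. The study sequenced sorted single mouse cells, from tumours and from lymph nodes, and its title concerns a contribution of lymphatic endothelium to tumour blood vessels. The sort used CD45, a surface protein of blood cells, CD31 (the product of Pecam1), a surface protein of endothelial cells, and green fluorescent protein (GFP). Tumour cells came from 3 gates. CD45- CD31+ GFP+ cells are named endothelial cells of the Csf1r lineage (CLEC), CD45- CD31+ GFP- cells are named endothelial cells (EC here), and CD45+ CD31- GFP- cells are named macrophages. Lymph node cells were all CD45- CD31+ and fell into GFPlow ("potential" CLEC), GFP+ (CLEC) and GFP- (endothelial cells). The labels give no strain, age, tumour model or animal, and do not say what drives the GFP. Each gate was therefore 1 sample, cells were not replicates of a condition, and no test between gates was possible.

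VEGFs are secreted dimers that bind receptor tyrosine kinases on endothelial cells. VEGF-A acts mainly through VEGFR2 (Kdr) to make blood endothelium sprout, divide and leak, whereas VEGFR1 (Flt1) binds VEGF-A, VEGF-B and placental growth factor tightly, signals weakly and can act as a decoy. VEGF-C acts through VEGFR3 (Flt4), which in the adult is best known from lymphatic vessels and is also found on sprouting blood vessels, and the neuropilins Nrp1 and Nrp2 hold ligands for both kinds of receptor as well as class 3 semaphorins.

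In the GRCm38 build (GENCODE vM21 annotation), all 9 are protein-coding genes. Flt1 lies at chr5:147561604-147726011 on the minus strand, Kdr at chr5:75932827-75978458 on the minus strand, and Flt4 at chr11:49609263-49652739 on the plus strand. Nrp1 lies at chr8:128358604-128503363 and Nrp2 at chr1:62703285-62818695, both on the plus strand. Vegfa lies at chr17:46016993-46032369, Vegfb at chr19:6982473-6987651 and Pgf at chr12:85166635-85177790, all on the minus strand, and Vegfc at chr8:54077606-54187096 on the plus strand. Whether reads were counted over all exons of a gene is not given in the sources used here, and the levels per kilobase below assume it.

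Flt1 and Kdr are both endothelial receptor genes but separated in the lymph node, where Kdr was read in all 3 gates and Flt1 mostly in 1 of them. The 250 bases before their RefSeq starts (GRCm38.p6) are given for that reason, 5′ to 3′ on the gene's own strand. Capitals mark GGAA on either strand (GGAA or TTCC), the core letters bound by ETS family factors such as ERG and FLI1, which endothelial genes commonly use.
Flt1 promoter, chr5:147726012-147726261, minus strand: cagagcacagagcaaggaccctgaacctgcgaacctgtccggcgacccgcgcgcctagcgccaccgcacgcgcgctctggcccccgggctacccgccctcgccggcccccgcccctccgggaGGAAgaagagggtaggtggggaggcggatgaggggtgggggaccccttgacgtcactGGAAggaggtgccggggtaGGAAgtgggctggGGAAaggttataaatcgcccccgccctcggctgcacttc
Kdr promoter, chr5:75978456-75978705, minus strand: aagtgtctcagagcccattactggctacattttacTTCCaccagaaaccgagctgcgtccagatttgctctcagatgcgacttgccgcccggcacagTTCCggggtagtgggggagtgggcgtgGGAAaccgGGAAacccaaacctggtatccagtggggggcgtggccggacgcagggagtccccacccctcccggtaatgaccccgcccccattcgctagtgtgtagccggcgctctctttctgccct
Each window held 4 matches. Of 32851 mouse promoters of that length, 93.4% held at least 1 match and 33.4% held at least 4, with a median of 3, so 4 matches are common. The other windows held 6 and 2 matches for the 2 windows of Vegfa, 4 for Nrp1, 2 for Flt4, 1 each for Nrp2, Vegfb and Vegfc, and 0 in both windows of Pgf. A match is a run of letters and was not read as a binding site.

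The 6 gates gave 739 wells, of which 585 cells passed the filters on reads, genes and mitochondrial share. There were 84 CLEC from plate KM3 and 85 from KM4, 84 EC and 81 macrophages from tumours, and 79 GFPlow, 98 GFP+ and 74 GFP- cells from lymph nodes. A kept cell had 58373 to 3123112 reads in genes, with gate medians of 609244 to 1238819. EC came from plate KM2 and macrophages from KM1, so plate and gate cannot be told apart in the tumour, whereas in the lymph node GFP+ and GFP- cells came from pools A, B and C and GFPlow cells from B, C and D. The gates matched their labels in the main markers: Ptprc, which encodes CD45, had 0 reads in both tumour endothelial gates, and 10 of 10 blood endothelial markers were measured in CLEC, EC and lymph node GFP- cells. Prox1, the transcription factor that defines lymphatic endothelium, had reads in 0.592% of CLEC and 0% of EC, and in 74.7% of GFPlow, 79.6% of GFP+ and 36.5% of GFP- lymph node cells. The summed level of the 9 lymphatic markers ran otherwise, at 4351 CPM in GFPlow, 1236 CPM in GFP+ and 5679 CPM in GFP- cells, with 7, 5 and 8 of them measured, and that of 12 pan-endothelial markers was 4563, 3145 and 9599 CPM in the same order. Other cell types' markers moved with the lymph node gates. The summed level of 12 macrophage markers was 288.99 CPM in GFPlow, 525 CPM in GFP+ and 61.6 CPM in GFP- cells, and that of 6 platelet markers was 491, 658 and 18.1 CPM in the same order; their part in the results was not tested. None of the 9 genes had a read in the 2 wells without a cell or in the 7 kept GFP+ cells from blood, which allows a share of up to 42.9% of such cells.

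Flt1, the high-affinity receptor, was abundant in tumour endothelium and in GFP- lymph node cells, and nearly absent elsewhere. Levels are counts per 1e+06 reads in genes (CPM) of the reads summed over a gate, with exact Poisson 95% intervals that, like the limits below, cover counting error only, since reads amplified without molecular identifiers are not independent molecules. Tumour CLEC had 1180.3 CPM (95% interval 1175 to 1186), with a median cell at 971 and the highest at 9363 CPM, and EC had 1171 CPM (1163 to 1178), with a median cell at 963 and the highest at 6662 CPM. The lowest cell was at 0 in every gate for every gene. Reads were found in 95.9% of CLEC and 96.4% of EC, and the plates KM3 (1173 CPM) and KM4 (1187 CPM) differed from each other by more than CLEC did from EC. Macrophages held 3 Flt1 reads in 3 of 81 cells. In the lymph node, GFPlow cells had 18.6 CPM, GFP+ cells 8.90 CPM and GFP- cells 625 CPM (618.3 to 632.6), with reads in 8.86%, 8.16% and 64.9% of cells. The low values rested on a few cells: 3 cells held 99.7% of the GFPlow reads and 3 cells held 83.9% of the GFP+ reads, with highest cells at 551 and 463 CPM. Among GFP- cells the median was 174.4 and the highest 5106 CPM, so single cells of all 3 lymph node gates overlapped at 0 while the pools did not. GFPlow pools B, C and D had 0, 0 and 26.6 CPM, GFP+ pools A, B and C had 3.30, 23.9 and 3.19 CPM, and GFP- pools A, B and C had 491, 853 and 269.3 CPM.

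Kdr, the main signalling receptor for VEGF-A, was read in most endothelial cells of every gate. CLEC had 469.8 CPM (466 to 473), EC 389.5 CPM (385 to 394) and macrophages 0 CPM, with reads in 88.8% of CLEC, 88.1% of EC and 0 of 81 macrophages, which allows a share of up to 3.7%. GFPlow cells had 728 CPM (722 to 733), GFP+ cells 479 CPM (475 to 484) and GFP- cells 963 CPM (955 to 972), with reads in 92.4%, 79.6% and 85.1% of cells. Median cells stood at 353.999 CPM in CLEC, 314.9 in EC, 484 in GFPlow, 250.3 in GFP+ and 647 in GFP- cells, and the highest at 3074, 2486, 3851, 3495 and 8448 CPM. The endothelial gates overlapped throughout. The pools of the GFPlow gate, at 1141, 560.3 and 683 CPM (B, C and D), reached above the GFP- pools (904, 1040 and 911 CPM) and below the highest GFP+ pool (429.8, 411 and 619.6 CPM), so neighbours in this order did not differ beyond the spread of pools, except that every GFP+ pool was below every GFP- pool.

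Flt4, the receptor for VEGF-C and VEGF-D, was highest in tumour CLEC. CLEC had 292.5 CPM (median cell 231.2, highest 2066), EC 133.2 CPM (median 90.8, highest 862) and macrophages 0.374 CPM, of which 29 of 30 reads came from 1 cell. Plates KM3 and KM4 had 272.7 and 311.03 CPM, both above every pool of the lymph node. GFPlow cells had 131.1 CPM (median cell 13.2, highest 820.1), GFP+ cells 182.8 CPM (median 49.04, highest 2665) and GFP- cells 88.7 CPM (median 0, highest 1247). Reads were found in 83.4% of CLEC and 88.1% of EC, and in 62.03% of GFPlow, 66.3% of GFP+ and 37.8% of GFP- cells, so CLEC differed from EC in the amount per cell rather than in the share of cells with reads. Lymph node pools overlapped, at 71.6, 91.2 and 152.2 CPM for GFPlow, 215.1, 240.5 and 78.3 CPM for GFP+, and 79.9, 118.3 and 0 CPM for GFP-.

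**Figure D1:**
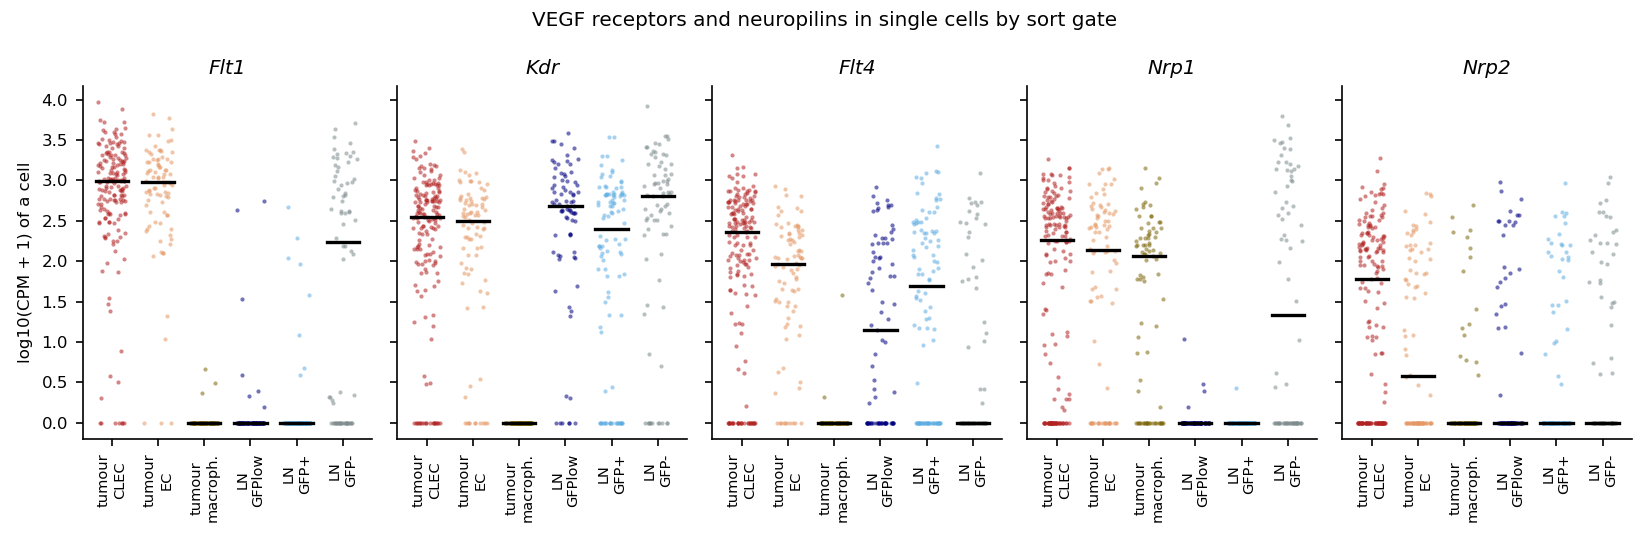
Level of each receptor and co-receptor gene in every kept cell, as log10(CPM + 1) on the vertical axis, for tumour CLEC, 84 tumour EC and 81 tumour macrophages, then 79 GFPlow, 98 GFP+ and 74 GFP- lymph node cells. Each point is 1 cell and the black line is the median of the gate; Flt1 medians are 971 and 963 CPM in CLEC and EC and 0 in GFPlow and GFP+ lymph node cells, while Kdr medians are above 0 in all 5 endothelial gates.

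Nrp1, a co-receptor that presents VEGF-A to VEGFR2, was the only member read in most macrophages, and it was almost missing from 2 lymph node gates. CLEC had 275.7 CPM (273.04 to 278.3; median cell 183.2, highest 1835), EC 249.5 CPM (246.02 to 253.1; median 137.3, highest 1420.2) and macrophages 149.8 CPM (147.1 to 152.5; median 115.8, highest 1417), with reads in 73.4%, 73.8% and 71.6% of cells. GFPlow cells held 5 Nrp1 reads in 4 of 79 cells and GFP+ cells 1 read in 98 cells, whereas GFP- cells had 619 CPM (612 to 626), with a median cell at 20.3 and the highest at 6236 CPM. Reads were found in 55.4% of GFP- cells, and every pool of that gate had Nrp1, at 534, 794 and 263.9 CPM (A, B and C). Nrp2, the neuropilin that binds VEGF-C and is known from lymphatic and venous endothelium, was spread more evenly. CLEC had 142.7 CPM (median cell 59.9, highest 1882), EC 83.8 CPM (median 2.78, highest 692) and macrophages 24.2 CPM (highest 499), with reads in 65.1%, 53.6% and 19.8% of cells. GFPlow cells had 71.8 CPM, GFP+ cells 47.3 CPM and GFP- cells 64.3 CPM, with medians of 0 and reads in 32.9%, 30.6% and 41.9% of cells. The lymph node pools overlapped for Nrp2, ranging over 61.4 to 103.7 CPM in GFPlow, 11.1 to 73.7 CPM in GFP+ and 57.3 to 123.98 CPM in GFP- cells.

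In the 2 tumour endothelial gates each ligand was read in fewer cells than any receptor or neuropilin, and these gates held most of the Vegfc and all of the Pgf. That order did not hold in every gate. Vegfa was read in 24 GFP+ lymph node cells and Flt1 in 8, and macrophages had more Vegfb (11.9 CPM) than Flt1, Kdr or Flt4. Vegfc, which encodes the ligand of VEGFR3, had reads in 38 CLEC (22.5%, 59.3 CPM), 10 EC (11.9%, 20.2 CPM) and 1 macrophage (1 read). The highest CLEC stood at 1087 and the highest EC at 442 CPM, and both CLEC plates had it, at 69.1 and 50.2 CPM. In the lymph node it was confined in each gate to 1 cell, which stood at 1120.2 CPM in GFPlow, held 1 read in GFP+ and stood at 1230.2 CPM in GFP-. Pgf, which encodes placental growth factor, a ligand of VEGFR1, had reads in 23 CLEC (13.6%, 93.2 CPM) and 9 EC (10.7%, 31.6 CPM). It had 0 reads in the other 4 gates, which allows shares of up to 3.7% of macrophages, 3.8% of GFPlow, 3.06% of GFP+ and 4.05% of GFP- cells. Pgf was concentrated, since 3 cells held 56.1% of its CLEC reads and 3 cells held 63.7% of its EC reads, and plates KM3 and KM4 differed, at 144.3 and 45.4 CPM. Vegfd, which encodes the other ligand of VEGFR3 and is not among the 9, had reads in 2 CLEC, 1 EC, 1 macrophage and 1 GFP- lymph node cell.

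Vegfa, which encodes the principal ligand of VEGFR2, was scarce in all sorted cells and more often read in the GFPlow and GFP+ lymph node gates. It had 1.99 CPM in CLEC (8 cells, 4.73%), 0.763 CPM in EC (4 cells, 4.76%) and 2.99 CPM in macrophages (6 cells, 7.41%). In the lymph node it had 6.10 CPM in GFPlow (16 cells, 20.3%), 6.03 CPM in GFP+ (24 cells, 24.5%) and 1.72 CPM in GFP- (2 cells, 2.70%), where 1 cell held 81 of 82 reads. With cells thinned to 100000 reads, the shares were 15.4% of GFPlow, 17.9% of GFP+ and 1.41% of GFP- cells. All 3 pools of each of the GFPlow and GFP+ gates had Vegfa, at 2.24, 22.5 and 3.08 CPM for GFPlow and 5.19, 9.19 and 4.29 CPM for GFP+, and the GFP- pools had 3.59, 0.0487 and 0 CPM. Vegfb, which encodes a ligand of VEGFR1, ranged from 4.06 CPM in CLEC and 6.93 CPM in EC to 11.9 CPM in macrophages, and over 8.54, 8.65 and 8.74 CPM in GFPlow, GFP+ and GFP- cells. Its reads came from 5.92% to 13.1% of the cells of a gate, and its highest cells stood at 162.96 to 398 CPM.

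**Figure D2:**
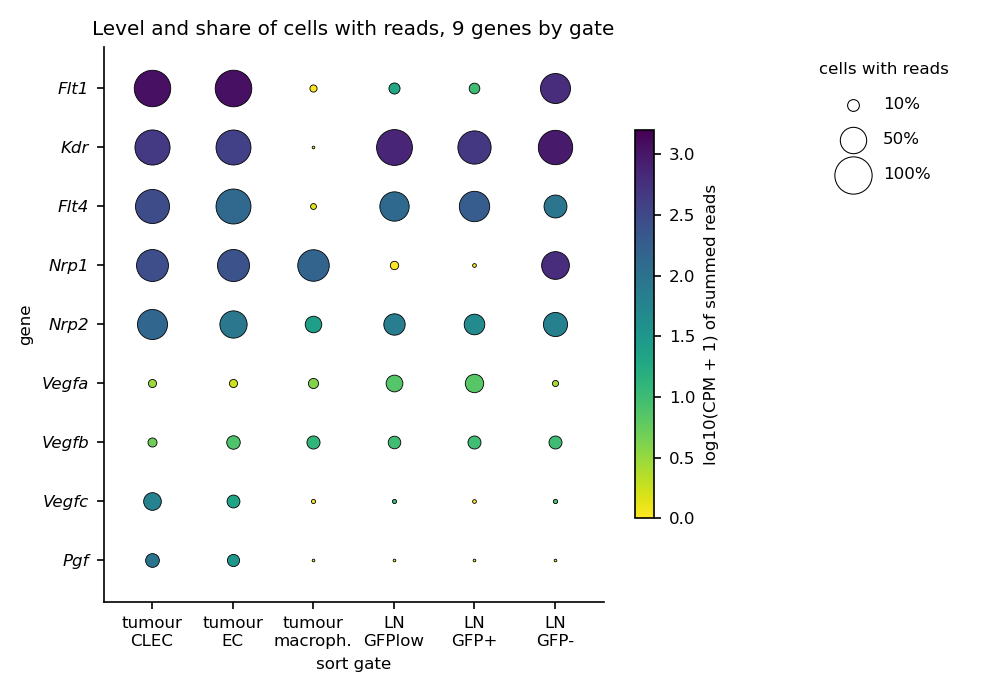
Level and spread of all 9 genes over the 6 gates: colour gives log10(CPM + 1) of the summed reads and circle size the percent of cells with a read. Flt1 and Nrp1 are high in both tumour endothelial gates and in lymph node GFP- cells (625 and 619 CPM) and far lower in GFPlow and GFP+ cells, and Pgf is read in the tumour endothelial gates alone.

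Between genes, levels were compared per kilobase of merged exon. CLEC ordered Flt1 (87.4 CPM per kb), Kdr (52.03), Flt4 (35.5), Pgf (32.1), Nrp1 (28.2), Vegfc (24.2), Nrp2 (12.05), Vegfb (2.53) and Vegfa (0.464). EC ordered Flt1 (86.7 CPM per kb), Kdr (43.1), Nrp1 (25.5), Flt4 (16.2), Pgf (10.9), Vegfc (8.25), Nrp2 (7.08), Vegfb (4.32) and Vegfa (0.178), so Flt4 stood above Nrp1 in CLEC and below it in EC. In macrophages Nrp1 led at 15.3 CPM per kb, followed by Vegfb at 7.38 and Nrp2 at 2.04. Kdr led in all 3 lymph node gates, at 80.6 CPM per kb in GFPlow, 53.1 in GFP+ and 106.7 in GFP- cells. It was followed by Flt4 in GFPlow (15.9) and GFP+ (22.2) cells but by Nrp1 (63.3) and Flt1 (46.3) in GFP- cells. Per kilobase of the longest transcript, which is much shorter than the merged exons for Nrp1, this gene moved to the top in GFP- cells (169.9 CPM per kb) and stood above Flt4 in CLEC too (75.6 against 46.8 CPM per kb), so the change of order between CLEC and EC rests on the merged exons.

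CLEC were set against EC to see whether GFP+ and GFP- endothelium of the tumour differ in these genes. Of 8 measured members, 3 were at least 2-fold higher in CLEC (Flt4, Vegfc and Pgf) and 0 were at least 2-fold lower. A gene counted as measured when 1 of the gates reached 1 CPM and 5% of cells with a read, and ratios are log2 of (CPM + 1) over (CPM + 1), which understates the change of low genes. Of the 10971 genes measured in that comparison, 6.95% were at least 2-fold higher, 8.25% at least 2-fold lower and 15.2% either, with a median ratio of -0.12 over all measured genes and 0.51 over the 8 members. The log2 ratio was 1.13 for Flt4 (95% counting interval 1.09 to 1.17), 1.51 for Vegfc (1.41 to 1.61) and 1.53 for Pgf (1.45 to 1.61). Plates KM3 and KM4 against the EC plate gave 1.03 and 1.22 for Flt4, 1.73 and 1.27 for Vegfc, and 2.16 and 0.51 for Pgf, so Pgf passed 2-fold on 1 plate alone. The other members lay within 2-fold: Nrp2 at 0.76 (0.75 and 0.77 by plate), Kdr at 0.27 (0.24 to 0.30), Nrp1 at 0.14, Flt1 at 0.01 and Vegfb at -0.65. Vegfa was not measured in either gate by this rule.

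The clusters of tumour endothelium, made without the 9 genes and without the pathway lists, were all blood-like by their markers, and CLEC and EC were spread over them unequally. A cluster led by Pgf, Esm1 and Fabp4 held 48 CLEC (28.4%) and 3 EC (3.57%), and a cluster led by Dhx35 and Npnt held 21 CLEC (12.4%) and 1 EC (1.19%). Flt4 was higher in CLEC than in EC within each of the other 5 clusters: 316.3 against 135.2 CPM in the cluster led by Prnd (28 and 29 cells), 187.5 against 144.3 CPM in the one led by Gsta4 (30 and 24 cells), and 220.4 against 49.4 CPM in the one led by the cell cycle gene Cenpf (25 and 8 cells). It was 106.6 in CLEC against 81.8 CPM in EC in the cluster led by the interferon-induced gene Ubd (11 and 9 cells) and 468 against 304.7 CPM in the one led by the arterial connexin gene Gja4 (6 and 10 cells). The direction of Flt4 was thus the same in 5 of 5 clusters. These are parts of the same plates, where plate and gate cannot be told apart, so they are not repeats of the comparison. Vegfc was not so even: CLEC had 145.1 against 14.8 CPM in EC in the cluster led by Gsta4 and 13.5 against 6.37 CPM in that led by Prnd, but 87.2 against 173.96 CPM in that led by Gja4. Pgf stood at 307.5 CPM in the CLEC of the cluster it led, in 12 of 48 cells, and at 68.04 CPM in CLEC against 56.1 CPM in EC in the cluster led by Prnd. Without the cluster led by Pgf, a choice made after the data were seen, the ratio of CLEC over EC was -0.68 for Pgf, 0.99 for Flt4 and 1.73 for Vegfc.

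**Figure D3:**
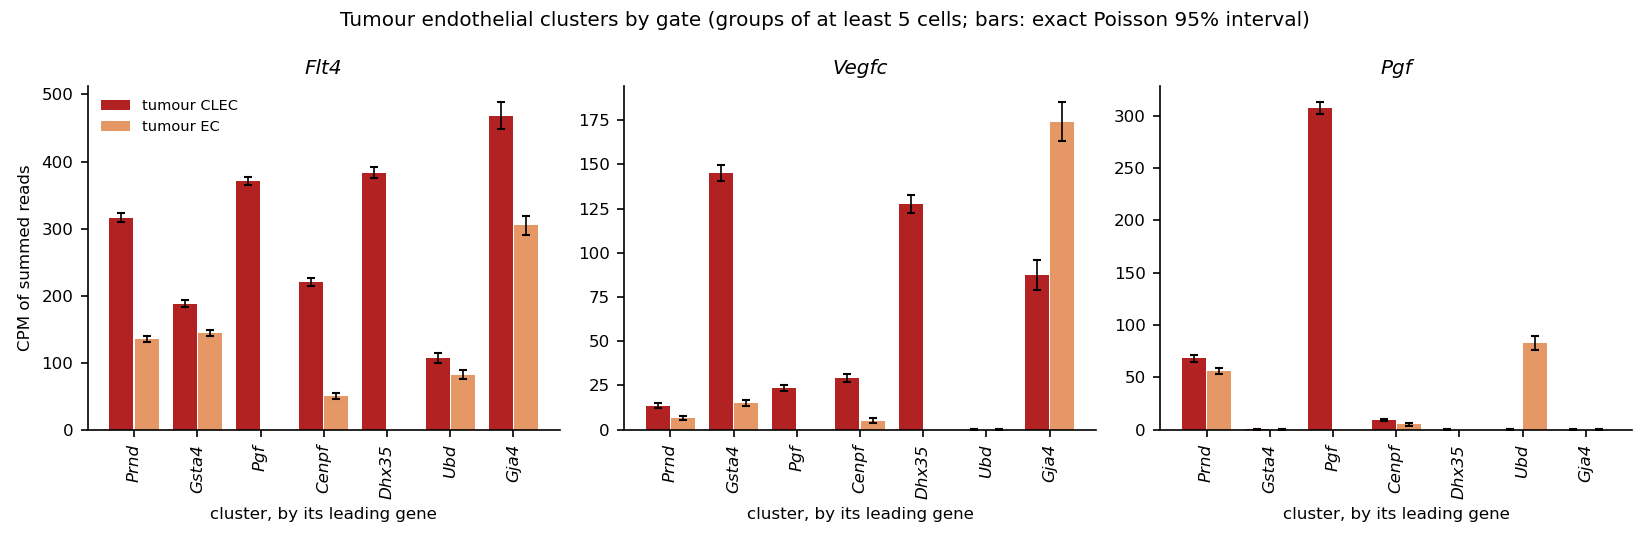
Flt4, Vegfc and Pgf in CPM of summed reads, with 95% Poisson intervals, in each tumour endothelial cluster, named by its leading gene, with CLEC left of EC. Clusters with fewer than 5 EC have no EC bar. Flt4 is higher in CLEC in the 5 clusters with at least 5 cells of each gate, for example 316.3 against 135.2 CPM in the cluster led by Prnd.

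Several receptors were read together in tumour endothelial cells. Reads of Flt1, Kdr and Flt4 were found together in 73.4% of CLEC and 76.2% of EC, but in 0 of 81 macrophages. Counted singly, they were read in 95.9%, 88.8% and 83.4% of CLEC and in 96.4%, 88.1% and 88.1% of EC. Genes read in so many cells share most cells in any case. The 2 neuropilins were found together in 89 CLEC (52.7%) and 34 EC (40.5%). Nrp1 was read in 73.4% of CLEC and 73.8% of EC, and Nrp2 in 65.1% and 53.6%. Whether these receptors were read together more often than their single shares give was not tested. Most cells with Vegfc reads also had reads of its receptor gene, as did most cells of both gates. Flt4 reads were found in 36 of 38 Vegfc-positive CLEC and 9 of 10 Vegfc-positive EC, against 83.4% of all CLEC and 88.1% of all EC. All 23 Pgf-positive CLEC had Flt1 reads, against 95.9% of all CLEC, and 7 of 9 Pgf-positive EC had them, against 96.4% of all EC. Vegfc and Pgf were found together in 3 CLEC, which is 7.89% of the Vegfc-positive and 13.04% of the Pgf-positive cells, and in 0 EC.

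Against macrophages, 6 of 9 measured members were at least 2-fold higher in each tumour endothelial gate, namely Flt1, Kdr, Flt4, Nrp2, Vegfc and Pgf. For CLEC, 24.2% of 11551 measured genes were at least 2-fold higher, 19.7% at least 2-fold lower and 44% either, and for EC 27.5%, 19.3% and 46.9% of 11791. The median ratio was 5.90 over the members and 0.08 over all measured genes for CLEC, and 4.39 and 0.21 for EC. Kdr, with 0 reads in macrophages, was at least 12554-fold higher in CLEC and at least 10409-fold higher in EC, and Pgf at least 2490.4-fold higher in CLEC and at least 843-fold higher in EC, against a floor of 3 reads over the macrophage gate. The log2 ratio of Flt1 was 10.15 in CLEC and 10.14 in EC over macrophages, and that of Nrp2 2.51 in CLEC and 1.75 in EC. Nrp1 was the exception among the receptors, within 2-fold at 0.88 in CLEC (0.84 to 0.92) and 0.73 in EC. Vegfb was lower in CLEC than in macrophages, at -1.34, and Vegfa lower in EC, at -1.18, but these rested on 10 CLEC and 4 EC with a read. Within the macrophage gate, Nrp1 stood at 170.6 CPM in the 68 cells of a cluster led by Il1b and at 69.3 CPM in the other 13 cells, and Nrp2 at 30.3 and 0.425 CPM.

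In the lymph node, GFP+ cells were set against GFP- cells, and GFPlow cells against both. In GFP+ cells, 2 of 7 measured members were at least 2-fold higher than in GFP- cells (Flt4 and Vegfa) and 3 at least 2-fold lower (Flt1, Kdr and Nrp1), where 20.1% of 11140 measured genes were at least 2-fold higher, 19.2% at least 2-fold lower and 39.3% either. The median ratio was -0.43 over the members and 0.04 over all measured genes. The ratio was -5.98 for Flt1 (pools A, B and C at -6.84, -5.10 and -6.01), -9.26 for Nrp1 (-9.06, -9.58 and -8.05) and -1.01 for Kdr (-1.07, -1.34 and -0.55). Flt4 was at 1.04 (1.42, 1.02 and 6.31, where GFP- pool C had 8 cells and 0 reads) and Vegfa at 1.37 (0.43, 3.28 and 2.403). The direction of these 5 genes was the same in 3 of 3 pools. Nrp2 lay at -0.43, with pools at 0.36, -0.44 and -3.37 that went both ways, and Vegfb at -0.01.

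**Figure D4:**
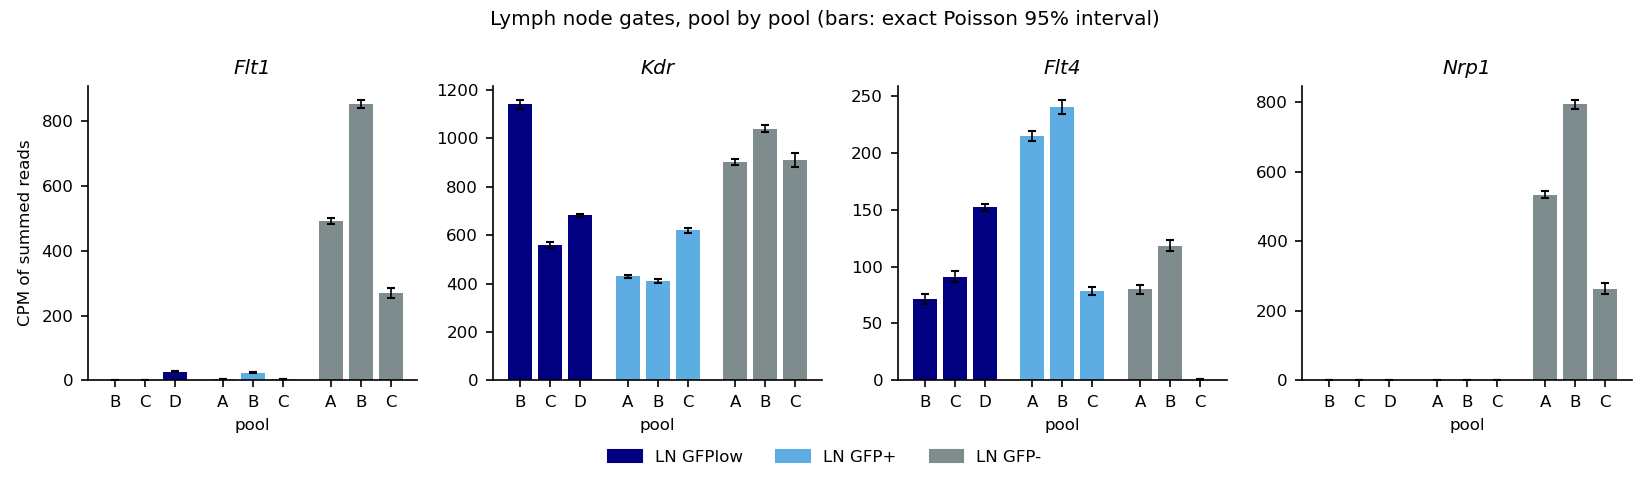
Flt1, Kdr, Flt4 and Nrp1 in CPM of summed reads, with 95% Poisson intervals, in each sorted pool of GFPlow (B, C, D), GFP+ (A, B, C) and GFP- (A, B, C) lymph node cells. Flt1 is at most 26.6 CPM in every GFPlow and GFP+ pool and at least 269.3 CPM in every GFP- pool, and Flt4 pools overlap between gates.

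GFPlow cells were compared within the pools they shared with the other gates, B and C, which left 29 GFPlow cells to set against 55 GFP+ and 34 GFP- ones. Relative to GFP- cells, Vegfa was at least 2-fold higher in GFPlow cells (log2 ratio 3.76; 13.1 against 0.0398 CPM) and Flt1 and Nrp1 were at least 2-fold lower, of 7 measured members. Of 10613 measured genes, 25.3% were at least 2-fold higher, 30.5% at least 2-fold lower and 55.8% either. Flt1 had 0 reads in the GFPlow cells of these pools and 746 CPM in the GFP- cells, and Nrp1 had 2 reads against 696 CPM (log2 ratio -9.35). Kdr (831 against 1016 CPM, -0.29), Flt4 (82.04 against 96.5 CPM, -0.23) and Nrp2 (96.0 against 70.6 CPM, 0.44) lay within 2-fold. Against GFP+ cells, Nrp2 was at least 2-fold higher in GFPlow cells (96.0 against 26.6 CPM, 1.81; pools B and C at 1.25 and 2.90) and Flt1 at least 2-fold lower (0 against 13.3 CPM, at least 127.1-fold), of 6 measured members. The Flt1 direction depends on leaving out pool D, since over the whole gates GFPlow cells had 18.6 CPM and GFP+ cells 8.90 CPM, each from a few cells. There, 20.5% of 10470 measured genes were at least 2-fold higher, 25.4% at least 2-fold lower and 45.9% either. Kdr (0.68), Flt4 (-0.93) and Vegfa (0.87) lay within 2-fold and each had pools of opposite sign, so these differences did not exceed the spread of pools.

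The lymph node gates held different kinds of endothelial cell, and Flt1 and Nrp1 were read mostly in the blood-like kind. Clusters made without the 9 genes and the pathway lists were lymphatic-like in 46 GFPlow (58.2%), 70 GFP+ (71.4%) and 26 GFP- cells (35.1%), and blood-like in 29 cells, all of them GFP- (39.2%). In each lymphatic-like cluster, 4 or 5 of the 9 lymphatic markers, a list with Prox1 and Lyve1, were read in at least 30% of cells. So were 2 or 3 of the 10 blood markers. The remaining 33 GFPlow, 28 GFP+ and 19 GFP- cells were unnamed, by a naming rule that was tightened after the clusters were seen. The unnamed GFP+ cells lay in a cluster led by predicted genes such as Gm10800 (13 cells) and in one led by Lyz2, Mrpl19, Coro1a and Csf1r (15 cells). Of the unnamed GFPlow cells, 23 and 8 lay in these same clusters. All of them stayed in the comparisons of whole gates, and their part in those was not tested. Different clusters made up the lymphatic-like class in each gate: mostly a cluster led by Ttyh2 in GFPlow (25 cells), those led by Cxcl10 (32 cells) and Zfp948 (24 cells) in GFP+, and that led by Ackr4 in GFP- (21 cells), so this class is not the same population in each gate. The 29 blood-like GFP- cells had 1672 CPM of Flt1, 1655 of Kdr, 1799.8 of Nrp1, 78.6 of Flt4 and 75.8 of Nrp2, with Nrp1 reads in all of them. Lymphatic-like cells had Flt1 at 10.5 CPM in GFPlow, 11.4 in GFP+ and 0.300 in GFP- cells, and 1, 1 and 2 reads of Nrp1 in all. The 19 unnamed GFP- cells had 308.1 CPM of Flt1, 688 of Kdr, 0.661 of Flt4 and 119.8 of Nrp1. Of these, 17 lay in a cluster led by Ccl21a, Chst4 and Fut7, genes known from high endothelial venules. That cluster, which also held 2 GFPlow cells, had 335.4 CPM of Flt1, 265.8 of Kdr, 0.564 of Flt4 and 102.2 of Nrp1. It held 3771 Kdr reads against 8324 in the 19 GFP- cells, so most of the latter came from the 2 GFP- cells outside it.

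Among lymphatic-like cells alone, a comparison added after the data were seen, GFP+ and GFP- cells lay closer in Kdr and Flt4 and further apart in Vegfa than over the whole gates. Kdr had 753 CPM in GFPlow, 503 in GFP+ and 590.2 in GFP- cells, and Flt4 had 152.6, 194.97 and 149.9 CPM, with Flt4 reads in 76.1%, 65.7% and 69.2% of cells. The ratio of GFP+ over GFP- was -0.23 for Kdr, 0.38 for Flt4 and 0.43 for Nrp2, all within 2-fold. It was 3.26 for Flt1, opposite in sign to the whole gates and resting on a few GFP+ cells, and 2.81 for Vegfa (6.35 against 0.0500 CPM; reads in 27.1% of GFP+ and 3.85% of GFP- cells). The Vegfa difference was therefore present within the lymphatic-like class, and its GFP+ pools A, B and C had 4.37, 11.1 and 4.44 CPM. In this class 26.6% of 10894 measured genes were at least 2-fold higher in the GFP+ gate, 21.3% were lower by as much and 47.9% either, against 39.3% either over the whole gates. Of GFPlow over GFP-, with 13 and 14 lymphatic-like cells of pools B and C, the ratio was 3.87 for Vegfa, 1.84 for Nrp2, -0.25 for Kdr, -0.94 for Flt4 and -1.23 for Vegfb, where 33.5% of 11006 genes were at least 2-fold higher, 34.9% lower and 68.4% either. Of GFPlow over GFP+, with 13 and 36 such cells, it was 2.13 for Nrp2, -1.13 for Flt4, -4.30 for Flt1 and 0.22 for Kdr, where 25.7% of 11156 genes were at least 2-fold higher, 33.8% lower and 59.5% either. The ligand ratios of GFPlow cells rested on few cells. Their Vegfa stood at 3.42 CPM in pool B (3 of 9 cells) and 27.9 CPM in pool C (2 of 4 cells). The Vegfb ratio over GFP- came from 2 GFPlow cells and 1 GFP- cell. Vegfc was also at least 2-fold higher in both comparisons, from the reads of 1 GFPlow cell.

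**Figure D5:**
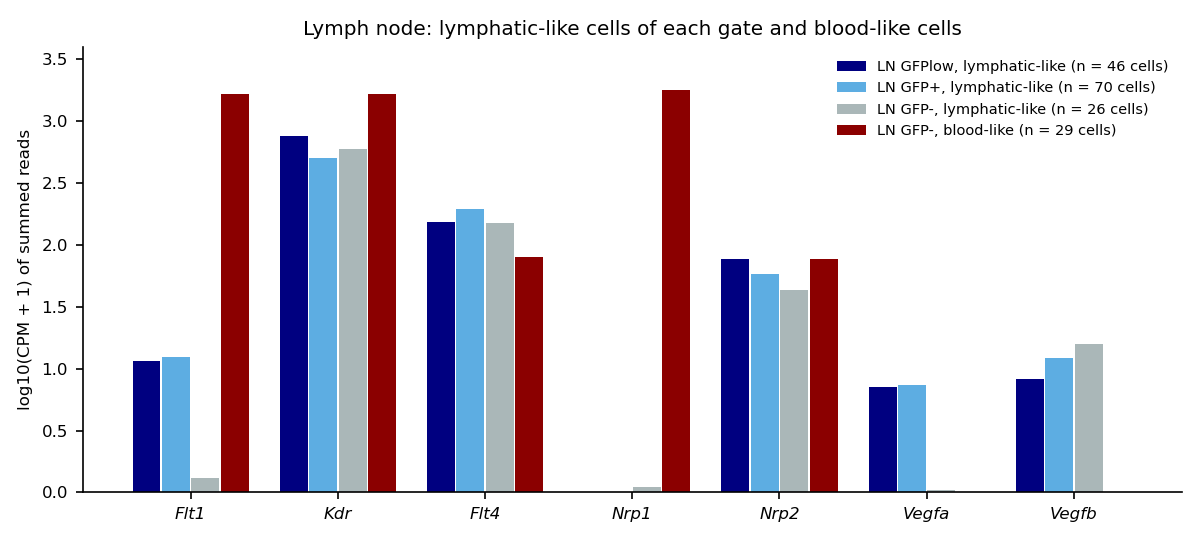
Levels of 7 of the genes, as log10(CPM + 1) of summed reads on the vertical axis, in lymphatic-like cells of the GFPlow (n = 46), GFP+ (n = 70) and GFP- (n = 26) gates and in blood-like cells of the GFP- gate (n = 29). Flt1 and Nrp1 are high in the blood-like cells (1672 and 1799.8 CPM) and at most 11.4 CPM in the lymphatic-like cells, whereas Flt4 is highest in lymphatic-like cells (152.6, 194.97 and 149.9 CPM).

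Among GFP- cells the same division was seen by reads of Prox1, which is also on the list that named the lymphatic-like clusters, so this is not a separate check. GFP- cells with Prox1 reads (27 cells) had 43.9 CPM of Flt1, 45.1 of Nrp1 and 130.4 of Flt4, and GFP- cells without them (47 cells) had 1146, 1134 and 51.3 CPM. GFP+ cells with Prox1 reads (78 cells) had 11.1 CPM of Flt1, 505 of Kdr and 172.8 of Flt4. GFP+ cells without them (20 cells) had 0.105, 377.6 and 222.6 CPM, so the division was not seen in that gate. GFPlow cells with and without Prox1 reads (59 and 20 cells) had 9.90 and 50.3 CPM of Flt1, the latter from 3 cells, and 157.6 and 34.3 CPM of Flt4. In the GFP+ and GFPlow gates, cells without Prox1 reads had 0 Nrp1 reads. By receptor pattern, Kdr and Flt4 without Flt1 was the commonest combination in GFPlow (45 cells, 57%) and GFP+ cells (49 cells, 50%) and was found in 12 GFP- cells (16.2%). Flt1 and Kdr without Flt4 was the commonest in GFP- cells (32 cells, 43.2%) and was found in 2 GFPlow and 3 GFP+ cells. A read pattern of a cell also depends on its depth, and cells without a read may express the gene.

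Tumour EC were set against GFP- lymph node cells, the matching gate of the other tissue. The values come from 2 tables, so tissue and table cannot be told apart, and the GFP- gate mixes blood-like and lymphatic-like cells. Vegfc and Pgf were at least 2-fold higher in EC and Kdr and Nrp1 at least 2-fold lower, of 8 measured members, where 25.5% of 11454 measured genes were at least 2-fold higher, 20.9% at least 2-fold lower and 46.4% either. The median ratio was 0.48 over the members and 0.14 over all measured genes. The ratio was -1.30 for Kdr (-1.21, -1.41 and -1.22 against pools A, B and C) and -1.31 for Nrp1 (-1.09, -1.67 and -0.08), and 1.38 for Vegfc. Flt1 (0.90), Flt4 (0.58) and Nrp2 (0.38) lay within 2-fold, and Pgf, with 0 reads in GFP- cells, was at least 502-fold higher in EC. Against the 29 blood-like GFP- cells alone, the ratio was -2.08 for Kdr and -2.85 for Nrp1, but -0.51 for Flt1 and -0.11 for Vegfc, where 40.7% of 11102 genes were at least 2-fold higher, 21% lower and 61.7% either. The lower Kdr and Nrp1 of tumour EC were thus larger differences against this blood-like cluster, while the sign for Flt1 and Vegfc turned. The Vegfc reads of its 29 cells came from 1 cell. Left out was the unnamed cluster led by Ccl21a, Chst4 and Fut7, with 7 blood markers and 1 lymphatic marker found. That cluster went the other way, with Kdr at 265.8 and Nrp1 at 102.2 CPM, below tumour EC (389.5 and 249.5 CPM).

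Genes of the pathway were also counted in lists. The list of VEGF response genes holds the members Flt1 and Pgf, so its counts here and below partly repeat theirs. Between CLEC and EC, where 6.95% of all measured genes were at least 2-fold higher and 8.25% lower, these differed: 0 of 9 measured receptor partners and phosphatases, 1 of 25 signal relay genes (Pik3r1, a regulatory subunit of phosphoinositide 3-kinase, 62.5 against 30.7 CPM), and 3 of 16 VEGF response genes, all higher in CLEC. These were Pgf, Esm1, a tip cell gene (151.1 against 59.6 CPM), and Dusp5, a phosphatase of ERK (31.5 against 13.6 CPM). The median ratio of the response genes was 0.02, against -0.12 for all measured genes. Among semaphorins and plexins, 1 of 7 was higher (Sema3g, 9.22 against 3.85 CPM) and 1 lower in CLEC (Sema3a, 8.60 against 33.8 CPM). Of 2 measured genes that process or assist VEGF-C, 0 differed by 2-fold. Of 11 hypoxia genes, 0 were higher and 2 lower in CLEC: Slc2a1, the glucose transporter GLUT1 (492 against 1008 CPM), and Ankrd37 (74.6 against 170.3 CPM).

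Against macrophages, CLEC had 24.2% of all measured genes higher by 2-fold or more and 19.7% lower. Of the lists, they had 9 of 17 VEGF response genes at least 2-fold higher and 5 lower, 5 of 10 receptor partners higher and 2 lower, 9 of 28 relay genes higher and 7 lower, 6 of 7 semaphorins and plexins higher, and 8 of 11 hypoxia genes higher. The relay genes thus lay near the share of all genes. Emcn, the endothelial sialomucin endomucin, had 898 CPM in CLEC and 2 reads in macrophages, and Nos3, endothelial nitric oxide synthase, 241.2 CPM and 0 reads. EC, with 27.5% of all measured genes higher and 19.3% lower, had 9 of 17 response genes higher and 5 lower, and 6 of 10 partners higher and 2 lower.

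GFP+ lymph node cells had 0 of 14 measured VEGF response genes at least 2-fold higher and 11 at least 2-fold lower than GFP- cells, with a median ratio of -2.55, where 20.1% of all measured genes were higher and 19.2% lower. Esm1 and Plaur, the urokinase receptor, had 0 reads in GFP+ cells against 104.6 and 65.5 CPM in GFP- cells, and Nr4a1, an immediate early gene, had 84.8 against 1901 CPM. Of 9 receptor partners, 2 were higher, Cd63 (831 against 258.8 CPM) and Itgav (73.6 against 24.4 CPM), and 4 lower, led by Emcn (1.304 against 529 CPM) and by Ptprb, the phosphatase VE-PTP (53.1 against 354.4 CPM). Of 26 relay genes, 2 were higher and 7 lower, among them Nos3 (9.19 against 146.1 CPM) and Hspb1 (95.2 against 936 CPM). Of 9 semaphorins and plexins, 1 was higher, Sema3a, a ligand of Nrp1 (337.1 against 83.1 CPM), and 6 were lower, with Plxnd1 at 14.99 against 168.1 CPM. The protease gene Pcsk5 was higher (73.4 against 20.99 CPM) and Furin lower (14.8 against 47.5 CPM); both encode enzymes of the family that cleaves VEGF-C. Of 9 hypoxia genes, 0 were higher and 5 lower. Among lymphatic-like cells alone, where 26.6% of all measured genes were higher and 21.3% lower, 3 of 10 measured response genes were at least 2-fold higher and 4 lower at a median of -0.55, and 5 of 7 measured semaphorins and plexins were lower.

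In GFPlow cells of pools B and C, 0 of 13 response genes were higher than in GFP- cells and 9 lower (median -1.87; 25.3% and 30.5% of all measured genes), and 5 of 10 were higher than in GFP+ cells and 1 lower (median 1.17; 20.5% and 25.4% of all measured genes). Between tumour EC and GFP- lymph node cells, where 25.5% of all measured genes were higher in EC and 20.9% lower, 7 of 11 hypoxia genes were at least 2-fold higher in EC and 1 lower, with Adm, adrenomedullin, at 215.8 against 12.9 CPM and Slc2a1 at 1008 against 133.6 CPM. Response genes went both ways, 6 of 18 higher and 6 lower, not far from the shares of all genes: Apln, the tip cell ligand apelin, had 403 CPM in EC and 0 reads in GFP- cells, and Nr4a1 had 77.1 against 1901 CPM. Receptor partners were higher in 5 of 9 and lower in 1, with Itgb1, the integrin β1 subunit, at 1511 against 392 CPM.

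Across the CLEC and EC of the tumour, the genes most alike to each receptor by Spearman rank correlation of log2(CPM + 1), among 4233 genes, were weakly so. Those of Flt1 were Igfbp3 (rho 0.45), Insr (0.34), Stc1 (0.30), Notch4 (0.28) and Col4a2 (0.26). Those of Kdr were Plpp3 (0.32), Plxna2 (0.28), Robo4 (0.26), Col15a1 (0.25) and Tacr1 (0.25), and those of Flt4 were Kcne3 (0.36), Plxnd1 (0.32), Sema3f (0.30), Col4a2 (0.30) and Gpihbp1 (0.29). Nrp1 was most like Pcdh17 (0.28), Eogt (0.28), Git2 (0.27), Chst15 (0.26) and Col15a1 (0.26), and Nrp2 most like Dchs1 (0.30), Pak2 (0.28), Slco2a1 (0.28), Slfn5 (0.26) and Pitpna (0.25). Across the 79 GFPlow, 98 GFP+ and 74 GFP- lymph node cells, Kdr was most like Eif4a2 (0.26), Sfi1 (0.25), Crip2 (0.25), Ppp1r13b (0.23) and Anxa2 (0.23), and Flt4 most like Tspan7 (0.30), Dnajc6 (0.29), Cyp4b1 (0.29), Phyhd1 (0.28) and Bmp2k (0.28). Cells of a tissue share gates, plates and depth, and Flt1 itself had a rho of -0.13 with the reads of a cell in the tumour and -0.23 in the lymph node. These values describe sparse counts and are not findings of shared behaviour.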

How the data were processed

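Single cells were sorted into 96-well plates, their RNA was amplified by a modified SMART-seq2 protocol with 20 cycles, and Nextera XT gave the libraries, per the labels' protocols. The deposited values are raw read counts per gene, in 2 tables with 1 column per well and 51826 rows for 51734 symbols (92 rows shared a symbol and were summed). FastQC 0.11.4, STAR 2.4.1b, Subread 1.4.6-p2 and the mm10 build are named in the submitters' processing notes, with no role given. Reads mapping to several genes and reads of overlapping genes could be lost or misplaced at that stage, and the counting's use of strand is not given in the sources used here.

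A well was kept if it reached 50000 reads and 1000 genes and if mitochondrial genes took 25% of its reads or less, which left 592 of 766 wells sorted with a cell, and no doublet caller was run. Reads were summed per gate and given as counts per 1e+06 reads in genes (CPM), with exact Poisson 95% intervals, shares of cells and their upper limits at a count of 0 (3 cells), and a floor of 3 reads for folds against 0. Depth was 58373 to 3123112 reads per kept cell. Ratios used a pseudocount of 1 CPM, and called means at least 2-fold and measured. No edgeR or other count test was run, since each gate is 1 sample with no animal named. Pools and plates show the spread, which may be technical.

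Cells were clustered for each table without the 9 genes and the list genes (2000 variable genes, 20 components, 15 neighbours, Leiden resolution 1), and a cluster was named from markers read in at least 30% of its cells, unless 3 or more of its 10 leading genes were predicted genes or markers of other lists led it. Python 3.11.15, numpy 2.4.6, pandas 2.3.3, scipy 1.17.1, scanpy 1.11.5, leidenalg 0.10.2 and matplotlib 3.10.9 were used, and the comparison script was tested on simulated data. The members, lists and alternatives were chosen with earlier results of these data known. Of each list, up to 4 genes with the largest called ratio could be named in each comparison, and the 5 genes most alike to each member read in at least 50% of cells.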

Additional observations from a re-analysis of the deposited data

Results flagged for a closer look

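For 3 genes each CLEC plate was above the EC plate, whereas every GFP+ lymph node pool was below the GFP- cells of the same pool. Flt1 had no direction in the tumour, where its log2 ratio of 0.012 had a counting interval of -0.0041 to 0.0281. Within the 5 clusters with at least 5 cells of each gate, CLEC were lower than EC in 4 for Flt1 and in 2 each for Kdr and Nrp1. For Flt1 the log2 ratio of GFP+ over GFP- cells was 5.996 greater in the tumour than in the lymph node, with 1180.3 against 1171 CPM in the tumour and 8.90 against 625 CPM in the lymph node. For Nrp1 it was 9.40 greater, with 275.7 against 249.5 CPM in the tumour and 1 read against 619 CPM in the lymph node. For Kdr it was 1.276 greater, with 469.8 against 389.5 CPM in the tumour and 479 against 963 CPM in the lymph node. The differences between the tissues were not tested, since each gate is 1 sample, and in the tumour Flt1 and Nrp1 differed by far less than 2-fold. Prox1 was read in 79.6% of GFP+ and 36.5% of GFP- lymph node cells and in 0.592% of CLEC and 0% of EC, and its part in these differences was not tested.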

How the results depend on the processing

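Under the alternatives tried, 1 called ratio changed sign in each of 3 comparisons, all with sets of cells chosen after the data were seen: Pgf in CLEC over EC without the cluster led by Pgf (-0.68), Flt1 in GFP+ over GFP- lymphatic-like cells (3.26) and Vegfc in EC over GFP- blood-like cells (-0.11). The cause was not tested, and the Vegfc reads of the blood-like GFP- cells came from 1 cell. Counts of the 9 genes moved by more than 1.5 times as follows. Without the cluster led by Pgf, 1 gene was higher and 1 lower in CLEC than in EC. Against macrophages, 0 genes were lower with a pseudocount of 5 CPM, in CLEC and in EC, and 0 in EC under a higher filter on low genes, while leaving out a plate gave 1 to 2 lower in CLEC. GFP+ against GFP- cells gave 1 higher with a pseudocount of 5 CPM, a stricter cell filter or named clusters alone, 1 to 2 when a pool was left out (1 without pool A or B), and 0 lower in lymphatic-like cells. GFPlow against GFP- cells gave 2 higher with no filter on low genes or without pool B or C, and 3 higher in named or lymphatic-like clusters, with 1 lower in the last. GFPlow against GFP+ cells gave 2 lower by the mean of single cells, by median-of-ratios scaling, and in named or lymphatic-like clusters, 3 lower with thinned cells and 0 lower under the higher filter. The same comparison gave 2 higher with thinned cells, with no filter and in those clusters, and 2 to 3 higher and 1 to 3 lower when a pool was left out. EC against GFP- lymph node cells gave 1 higher by the mean of single cells, with thinned cells and in named clusters, and 1 to 2 lower when a pool was left out (1 without pool B). No paired analysis was possible because the comparisons come from no test; pools tie the lymph node gates, and the ratios within pools stand in the report. Of 54 shares of cells with a read, 52 stayed within their interval after thinning. At a clustering resolution of 0.5 the largest lymph node cluster was unnamed, and the lymphatic-like class held 14 GFPlow, 30 GFP+ and 23 GFP- cells: GFPlow cells then had 0.719 CPM of Vegfa (6.05 with the finer clusters), 40.6 of Flt1 (10.5) and 156.2 of Nrp2 (76.6), and GFP+ cells 22.5 of Flt1 (11.4) and 9.71 of Vegfa (6.35). Few cells had ligand reads: Vegfa and Vegfb rested on 2 to 24 cells in each gate, Vegfc on 1 to 38 and Pgf on 0 to 23.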
